A study of Mus musculus with 2 samples.

Results

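The antioxidant and NRF2 response genes are a set of 40 genes listed by name, with no threshold on a measured value, for their part in removing oxidants, in making and recycling glutathione and thioredoxin, or in controlling these systems through the transcription factor NRF2. All 40 had a row among the 19829 genes of the deposited table. Messenger RNA was measured in whole kidneys of male C57BL/6J mice. There was 1 library for the wild-type group (WT+AKI) and 1 for the group of littermates that overexpressed *Inmt* in proximal tubules (TG+AKI). By the methods of the study, both groups received the calcineurin inhibitor voclosporin from 8 to 10 weeks of age (2 weeks of intraperitoneal injections, 30 mg/kg/day). Both underwent 30 min of bilateral renal ischemia at 14 weeks. By that design the drug and the ischemia procedure were shared, and the transgene was the planned difference. With 1 library per group, the transgene cannot be told apart from differences between animals or between library preparations. Another statement puts ischemia after 6 weeks of the drug, and kidneys were collected 24 h or 48 h after ischemia, since the sources used here give both times. The labels state that no treatment was given whereas the design of the series names voclosporin, and the title given to the TG+AKI sample speaks of a conditional knockout as well. The promoter that drives the transgene and whether animals were pooled were not given in the sources used here.

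NRF2, encoded by *Nfe2l2*, is held in the cytoplasm by KEAP1, which passes it to a cullin ubiquitin ligase for degradation. When oxidants or electrophiles modify KEAP1, NRF2 accumulates, enters the nucleus, pairs with a small MAF protein and binds antioxidant response elements near genes for glutathione synthesis, thioredoxin reduction, heme breakdown and NADPH supply. The proximal tubule is rich in mitochondria and peroxisomes, both of which make oxidants, and reperfusion after ischemia is known to add to that load.

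The libraries held 38542764 reads (WT+AKI) and 36427421 reads (TG+AKI) over the listed genes. Values are normalised read counts, that is, reads divided by a library factor, on which 1 read was worth 0.0236 (WT+AKI) or 0.0302 (TG+AKI). A gene was compared where its value reached 10 in at least 1 library, and it was called higher or lower where the libraries lay 2-fold or more apart on the log2(value + 1) scale, which understates differences of genes with low values. With 1 library per group there is no replicate check on any difference, and the 95% exact intervals given with ratios cover counting error only. Across 10294 compared genes, 5.74% were called higher in TG+AKI, 7.12% were called lower and 12.9% were called in either direction, with a median log2 fold change of 0.01. *Inmt* itself measured 10.4 in WT+AKI and 403 in TG+AKI (ratio 38.5, 95% interval 35.1 to 42.5), in the direction of the genotype label. All 8 tubular injury markers examined were lower in TG+AKI (median log2 fold change -4.05), with *Havcr1*, which encodes KIM-1, at 1169 and 2.78. All 14 proximal tubule markers were higher (median 1.98), and their summed value was 6221 in WT+AKI and 21797 in TG+AKI. In bulk tissue, fewer cells of a type and less RNA per cell cannot be told apart, and the part of these markers in the values below was not tested.

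The element that NRF2 and its MAF partner recognise was searched for as TGACNNNGC on both strands of RefSeq promoter windows (GRCm38.p6), each reaching from 250 bases before a gene's start to 50 bases after it. The form with TGAG in place of TGAC was not searched for, so a window without a match may still hold that form. Windows were matched for 34 of the 40 genes, and those without a match were *Hmox1*, *Gclc*, *Gsr*, *Prdx6*, *Sod3* and *Msra*. The motif was present in a window of 7 of these 34 genes (20.6%), against 16.6% of the genes of the table that had a window. By windows, it was in 7 of 47 of the members (14.9%) and in 2436 of 17450 of the genes of the table, which is a similar share. Over all 300-base windows, including those of genes outside the table, the share was 12.4%. Of the 10 members that textbooks name as NRF2 targets, 7 had a window and 4 held the motif. The stretches around these 4 are printed 5′ to 3′ along the gene's strand, with the motif in capitals, because 4 of the 7 genes called below are NRF2 targets of this class.
*Srxn1*, chr2:152105542-152105570, plus strand: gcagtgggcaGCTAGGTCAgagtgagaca
*Txnrd1*, chr10:82859089-82859147, plus strand: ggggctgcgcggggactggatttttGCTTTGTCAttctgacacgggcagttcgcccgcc
*Gclm*, chr3:122245398-122245456, plus strand: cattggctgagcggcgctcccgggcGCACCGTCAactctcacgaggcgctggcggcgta
*Prdx1*, chr4:116685441-116685499, plus strand: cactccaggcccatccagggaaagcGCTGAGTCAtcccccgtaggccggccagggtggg
In all 4 the motif reads on the opposite strand, as TGACCTAGC in *Srxn1*, TGACAAAGC in *Txnrd1*, TGACGGTGC in *Gclm* and TGACTCAGC in *Prdx1*. The *Prdx1* match also holds the AP-1 heptamer TGACTCA, which AP-1 factors share with NRF2. That heptamer, which reads TGAGTCA on the other strand, was present anywhere in the window for 5.20% of all windows. The *Srxn1* window holds the heptamer too, outside its motif match and the stretch printed, and so does the *Osgin1* window, which had no motif match. In both windows a copy of the heptamer lies within TGAGTCAGC, which has the form that was not searched for. The motif began 28 bases after the start in *Srxn1*, and 92, 134 and 133 bases before it in *Txnrd1*, *Gclm* and *Prdx1*. In *Txnrd1* it lay in 1 of 3 windows, inside the gene as annotated from its most upstream start. A match is a run of letters and not a measured binding site. These 4 genes did not share a direction, since *Srxn1* and *Txnrd1* were called lower, *Gclm* was slightly lower and *Prdx1* slightly higher as deposited but lower with both libraries scaled to equal totals. The other 3 members with a match were *Blvra*, *Nfe2l2* and *Sod1*.

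Of the 40 genes, 39 passed the filter, 1 (*Nox4*) was called higher in TG+AKI and 6 (*Srxn1*, *Hmox1*, *Txnrd1*, *Txnip*, *Gclc* and *Nfe2l2*) were called lower. These are 2.56% and 15.4% of the members compared, beside the 5.74% and 7.12% found over all genes. The other 32 differed by less than 2-fold. Log2 fold changes were above 0 for 22 members and below 0 for 17, and their median was 0.20, which was -0.08 when both libraries were scaled to equal totals. The median absolute log2 fold change was 0.60 for the members and 0.33 over all genes. The counting interval of the ratio excluded 1 for 38 of 40 genes, all except *Keap1* and *Gpx7*, which reflects the depth and not the spread between mice. *Gpx7*, an endoplasmic reticulum peroxidase, was the member below the filter, with 47 and 50 reads.

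**Figure D1:**
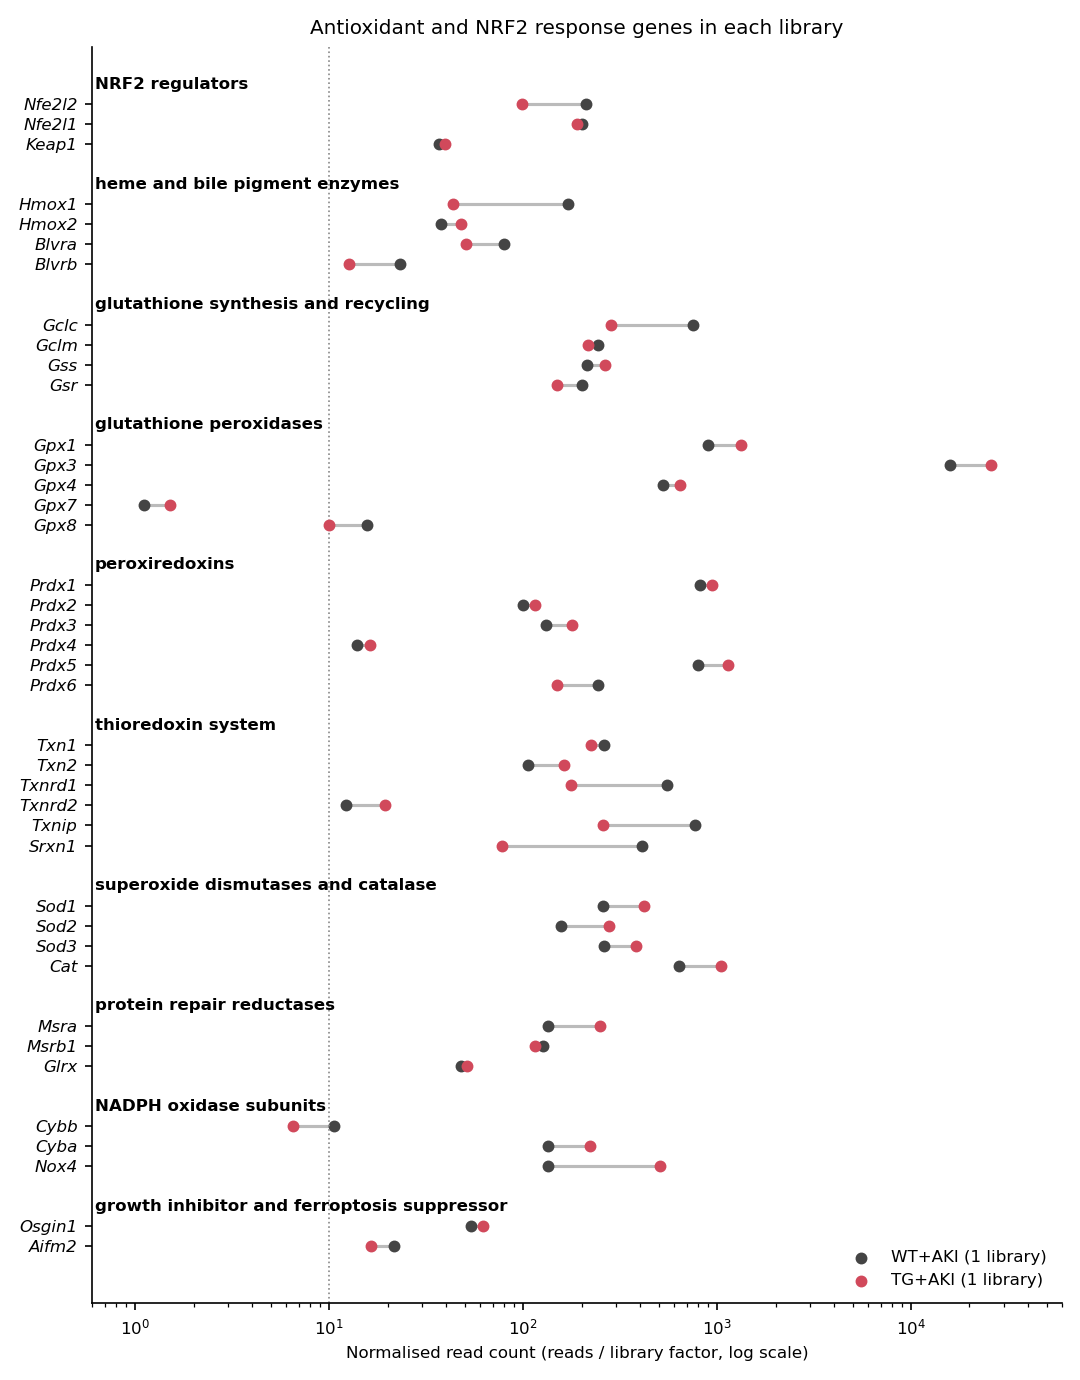
Normalised read count of each of the 40 genes in the WT+AKI library (grey) and the TG+AKI library (red), on a log axis and grouped by role, with the dotted line at the filter value of 10. The widest gaps with the red point on the left are those of *Srxn1* (409 and 77.5), *Hmox1* (170 and 43.3) and *Txnrd1* (552 and 177), and the widest with the red point on the right is that of *Nox4* (134 and 507).

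Among the regulators, *Nfe2l2* (NCBI Gene 18024, chr2:75675513-75704641, minus strand) was called lower and its partners in control were close to equal. Its value was 212 in WT+AKI and 98.1 in TG+AKI, 2.16-fold lower (95% interval 2.07 to 2.24). *Keap1*, the sensor that holds NRF2 back, measured 36.7 and 39.3, a ratio of 1.07 with an interval from 0.995 to 1.16 that includes 1, and its direction turned under 2 other scalings. *Nfe2l1*, which encodes the related factor NRF1, known for its control of proteasome genes, measured 202 and 191 (ratio 0.944, 95% interval 0.914 to 0.976). *Nfe2l2* was thus the only regulator of the 3 past the 2-fold line, and it was the closest to that line of the 6 members called lower. Just inside it were *Msra* (ratio 1.86) on the higher side and *Blvrb* (0.544) on the lower side, and *Blvrb* passed the line when both libraries were scaled to equal totals (log2 fold change -1.09). Part of *Keap1* overlaps the gene *Gm16754* on the opposite strand (6.26% of its 100-base words were shared), so its value is uncertain to that extent.

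The heme and bile pigment enzymes showed the inducible and the constitutive heme oxygenase apart. *Hmox1* (Gene 15368, chr8:75093621-75100589, plus strand), the inducible enzyme that breaks heme into biliverdin, iron and carbon monoxide, measured 170 in WT+AKI and 43.3 in TG+AKI, 3.92-fold lower (95% interval 3.71 to 4.15). *Hmox2*, the constitutive enzyme, measured 37.6 and 47.9 (ratio 1.27, 95% interval 1.18 to 1.36). Of the *Hmox2* transcript, 43.0% of the 100-base words also lie in *Cdip1* on the opposite strand, and its value is uncertain. The biliverdin reductases, which turn biliverdin into bilirubin, were both lower by less than 2-fold, *Blvra* at 79.7 and 51.0 (ratio 0.641) and *Blvrb* at 23.2 and 12.6 (ratio 0.544). The median log2 fold change of the 4 genes was -0.73.

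Glutathione is made in a pair of steps, by glutamate-cysteine ligase and then by glutathione synthetase. *Gclc* (Gene 14629, chr9:77754535-77794485, plus strand), the catalytic subunit of the ligase and the rate-limiting step of the pathway, measured 752 in WT+AKI and 285 in TG+AKI, 2.64-fold lower (95% interval 2.579 to 2.701). *Gclm*, the subunit that modifies the ligase, measured 244 and 215 (ratio 0.882, 95% interval 0.855 to 0.909). The subunits therefore differed in the size of their difference between the libraries, by more than the counting error. *Gss*, the synthetase, measured 213 and 264 (ratio 1.24), and 15.4% of its exonic bases are overlapped by genes of the opposite strand. *Gsr*, the reductase that returns oxidised glutathione to its reduced form, measured 200 and 150 (ratio 0.748). 1 of the 4 genes was called lower and none higher (7.12% and 5.74% over all genes).

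The thioredoxin system held 3 of the 6 genes called lower, and its cytosolic and mitochondrial members lay on opposite sides of equality. *Srxn1* (Gene 76650, chr2:152105516-152111376, plus strand) encodes sulfiredoxin, which rescues overoxidised peroxiredoxins. Its value was 409 in WT+AKI and 77.5 in TG+AKI, 5.28-fold lower (95% interval 5.06 to 5.50), the largest difference of all 40 genes and rank 138 from the lowest of the 10294 genes compared. *Txnrd1* (Gene 50493, chr10:82833951-82897712, plus strand), the cytosolic thioredoxin reductase, measured 552 and 177, 3.11-fold lower (95% interval 3.02 to 3.20). *Txnip* (Gene 56338, chr3:96557957-96561883, plus strand) encodes a protein that binds and inhibits thioredoxin and restrains glucose uptake, and it is not counted here among NRF2 targets. It measured 769 and 258, 2.98-fold lower (95% interval 2.91 to 3.05), and 15.1% of its 100-base words are shared with *Gm15441* on the opposite strand. *Txn1*, the cytosolic thioredoxin itself, measured 261 and 223 (ratio 0.854). The mitochondrial pair was higher by less than 2-fold, with *Txn2* at 106 and 162 (ratio 1.52, 95% interval 1.46 to 1.58) and *Txnrd2* at 12.2 and 19.4 (ratio 1.60, 95% interval 1.42 to 1.80).

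**Figure D2:**
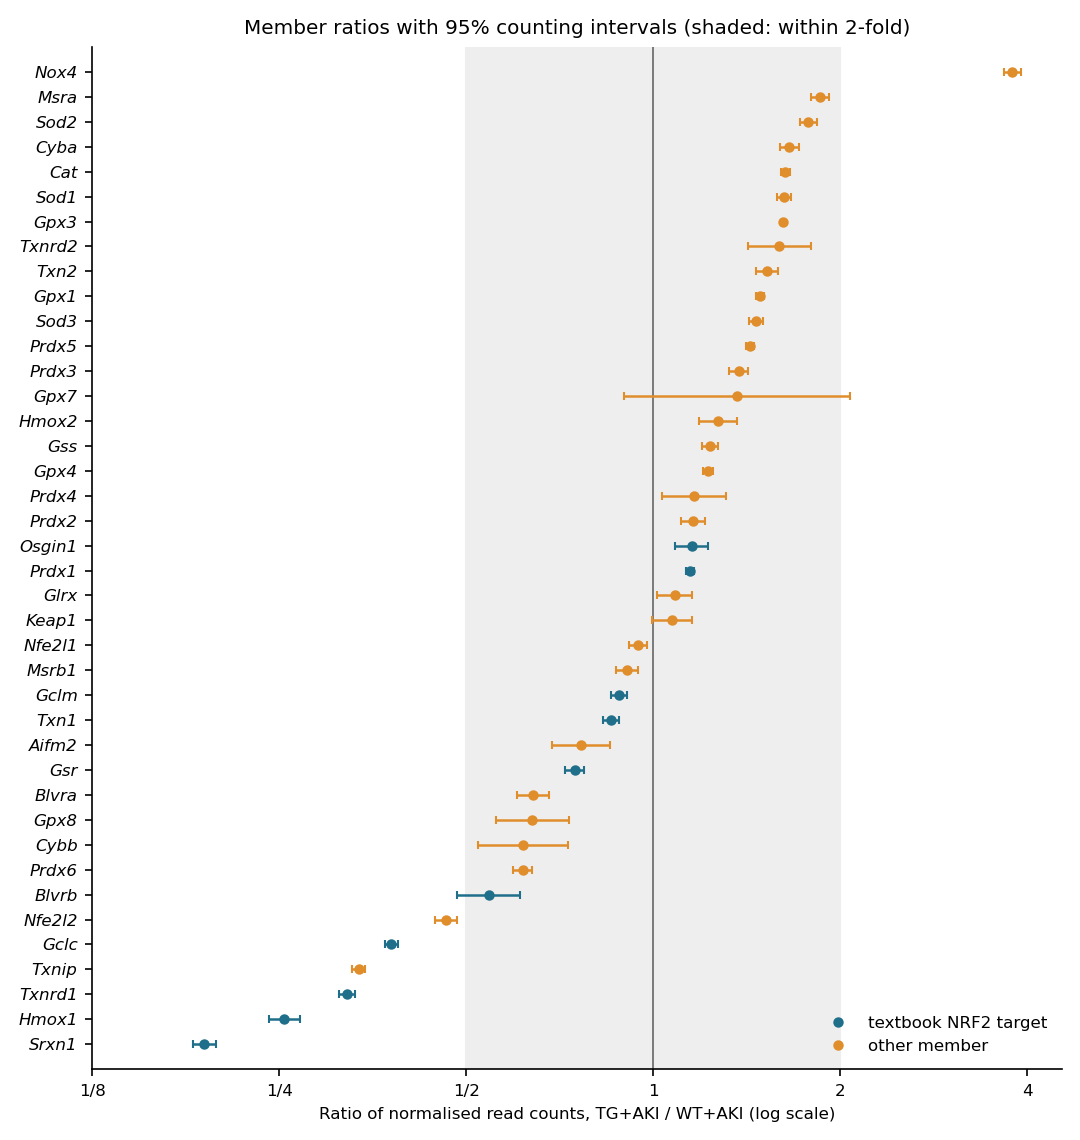
Ratio of the normalised read counts, TG+AKI over WT+AKI, for each of the 40 genes in order, on a log axis, where bars are 95% exact intervals from the reads (counting error only) and the shaded band spans less than 2-fold. Textbook NRF2 targets (blue) run from *Srxn1* at 0.189 to *Osgin1* at 1.15, and *Nox4* at 3.79 is the only gene above the band.

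None of the 5 glutathione peroxidases among the 40 genes was called in either direction. *Gpx3*, the secreted enzyme that the proximal tubule releases into plasma, was the most abundant member per kb of transcript in both libraries. It measured 15894.5 in WT+AKI and 25681.3 in TG+AKI (ratio 1.62, 95% interval 1.61 to 1.62), and it made up 61.9% and 71.6% of the summed value of the 40 genes. The sum over all 40 was 1.40 times higher in TG+AKI, and without *Gpx3* it was 1.04 times higher. *Gpx1*, the cytosolic enzyme, measured 894 and 1329 (ratio 1.49). *Gpx4*, which reduces lipid peroxides in membranes and so restrains ferroptosis, measured 524 and 642 (ratio 1.22), but 48.4% of its 100-base words are shared with the pseudogenes *Gpx4-ps2* and *AC122253.3* and its value is uncertain. *Gpx8* of the endoplasmic reticulum measured 15.6 and 9.995 (ratio 0.639).

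Peroxiredoxins, which reduce hydrogen peroxide with electrons from thioredoxin, were within 2-fold in all 6 cases. *Prdx5*, found in mitochondria, peroxisomes and cytosol, measured 793 and 1137 (ratio 1.43), and *Prdx3*, the mitochondrial form, measured 131 and 179 (ratio 1.37). *Prdx1*, the abundant cytosolic form, measured 818 and 937 (ratio 1.15). *Prdx2* and *Prdx4*, the latter of the endoplasmic reticulum, had ratios of 1.16 and 1.16, and these 2 and *Prdx1* were below 1 when the libraries were scaled to equal totals. *Prdx6*, which uses glutathione in place of thioredoxin, was the only member of the family that was lower as deposited, at 243 and 149 (ratio 0.616, 95% interval 0.595 to 0.637). *Prdx2* shares 12.8% of its 100-base words with *Junb*, *Rnaseh2a* and *Tdpx-ps1*, and *Prdx5* shares 10.5% with *Trmt112*.

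All 4 enzymes that remove superoxide or split hydrogen peroxide without a thiol were higher in TG+AKI by less than 2-fold, and they were so under each of the 5 other scalings and pseudocounts tried. *Sod2*, the mitochondrial superoxide dismutase, measured 156 in WT+AKI and 277 in TG+AKI (ratio 1.78, 95% interval 1.72 to 1.83). *Sod1*, its cytosolic counterpart, measured 258 and 418 (ratio 1.62), and *Sod3*, which is secreted, measured 261 and 382 (ratio 1.46). *Cat*, the peroxisomal catalase, measured 638 and 1041 (ratio 1.63, 95% interval 1.60 to 1.66). The median log2 fold change of the 4 genes was 0.70, and 0.43 with equal totals. The 4 mitochondrial members (*Prdx3*, *Txn2*, *Txnrd2* and *Sod2*) were also all higher, with a median of 0.62 (0.35 with equal totals), and none of them reached the 2-fold line. Proximal tubule markers were higher beside both groups (summed ratio 3.50), and their part in these differences was not tested.

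The protein repair reductases differed among themselves. *Msra*, which repairs oxidised methionine in proteins, measured 134 and 249 (ratio 1.86, 95% interval 1.80 to 1.92), the highest ratio among the members that were not called. *Msrb1*, a selenoprotein that repairs the other stereoisomer of oxidised methionine, measured 127 and 115 (ratio 0.907). *Glrx*, which removes glutathione from protein thiols, measured 47.7 and 51.6 (ratio 1.08), and it was below 1 under 2 other scalings. Of the remaining pair, *Osgin1*, an oxidative stress induced growth inhibitor, measured 53.6 and 61.8 (ratio 1.15, below 1 with equal totals). *Aifm2*, which encodes the ferroptosis suppressor FSP1, measured 21.6 and 16.5 (ratio 0.765, 95% interval 0.687 to 0.852).

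The NADPH oxidase subunits, which make oxidants in place of removing them, held the only gene called higher. *Nox4* (Gene 50490, chr7:87246096-87398710, plus strand) encodes the oxidase that is abundant in kidney tubules and is active without induced cytosolic subunits. It measured 134 in WT+AKI and 507 in TG+AKI (ratio 3.79, 95% interval 3.67 to 3.90) and ranked 127 from the highest of the 10294 genes compared. *Cyba*, the membrane subunit p22phox that stabilises both NOX4 and the phagocyte oxidase, measured 134 and 221 (ratio 1.66). *Cybb*, the catalytic subunit of the phagocyte oxidase, was near the filter, with 10.6 and 6.52 (448 and 216 reads, ratio 0.617, 95% interval 0.522 to 0.728). Of 11 macrophage markers with a row, 9 passed the filter, and 6 were called lower and none higher (7.12% and 5.74% over all genes). The summed value of the 11 was 260 in WT+AKI and 149 in TG+AKI. *Cd68* measured 37.1 and 1.39, and *Csf1r*, named after its value was seen, measured 37.5 and 43.0. *Marco* had no row, and a marker seen in 1 library only would be missing, because the deposited values hold no row at 0. The 3 neutrophil markers with a row were below the filter and summed to 7.38 and 1.42. By summed value, these markers lay on the same side as *Cybb* and the proximal tubule markers on the same side as *Nox4*. The 8 markers of other kidney epithelial cells were also higher by summed value (ratio 1.73). Of those 8, 6 were above 0 and 2 were called higher (5.74% over all genes). The part of any of these markers in either difference was not tested.

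Of the 10 members that are textbook NRF2 targets, 4 (*Srxn1*, *Hmox1*, *Txnrd1* and *Gclc*) were called lower and none higher, beside 7.12% and 5.74% over all genes. A log2 fold change below 0 was found for 8 of the 10, beside 48.8% over all genes, and their median was -0.62. The 29 other members compared had a median of 0.30, with 20 above 0 and 9 below, and the median over all 10294 genes was 0.01. The groups overlapped, since *Osgin1* and *Prdx1* were above 0 among the targets and *Txnip* and *Nfe2l2* were called lower among the others. No test of the difference was made. Genes outside the 40 with related functions were counted in the same way. Among 30 other NRF2 targets past the filter, 11 were called lower and none higher (7.12% and 5.74% over all genes), 25 were below 0 (48.8% over all genes), and the median was -0.49. They included *Cbr3* and *Cbr1*, carbonyl reductases, with log2 fold changes of -3.03 and -1.46, *Aldh1a1*, a retinaldehyde dehydrogenase, with -2.85, and *Ephx1*, an epoxide hydrolase, with -2.80. *Abcc3*, an exporter of conjugates, had -2.22, *Gsta1*, a glutathione transferase, -1.85, *Tgfa*, an EGF receptor ligand, -1.37, and *G6pdx*, which feeds NADPH to the reductases, -1.13. *Nqo1*, the quinone reductase often used as a marker of NRF2 activity, was close to the line at 227 and 111 (ratio 0.489), and it is named here after its value was seen.

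Partners and adaptors of NRF2 were mostly close to equal, with a median log2 fold change of 0.02 over 14 genes. The small MAF genes were an exception in part, since *Maff* measured 24.6 and 1.69 and *Mafk* measured 54.9 and 23.3, both called lower, and *Mafg*, named after its value was seen, measured 130 and 134. Of 30 other antioxidant enzymes, 6 were called higher and 2 lower (5.74% and 7.12% over all genes), with a median of 0.04. The 6 were *Idh2* (log2 fold change 1.58) and *Nnt* (1.43), which encode mitochondrial enzymes that can supply NADPH, *Ggt1* (1.43) and *Ggt6* (1.17), which belong to the family that splits extracellular glutathione, *Selenop* (1.33), the selenium carrier, and *Gpx6* (1.10). Whether these C57BL/6J mice made functional NNT protein was not measured, so the *Nnt* value stands for RNA only. The 2 called lower were the metallothioneins *Mt2* (-3.87) and *Mt1* (-3.13), which bind zinc and copper. Among oxidant sources outside the 40, only 3 genes passed the filter, and *Xdh*, which encodes xanthine oxidoreductase, and *Maoa*, which encodes a monoamine oxidase, were called lower (-1.69 and -1.22). Over these 4 lists together, 75 genes were compared, 6 were called higher and 17 lower (5.74% and 7.12% over all genes), and the median was -0.26.

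**Figure D3:**
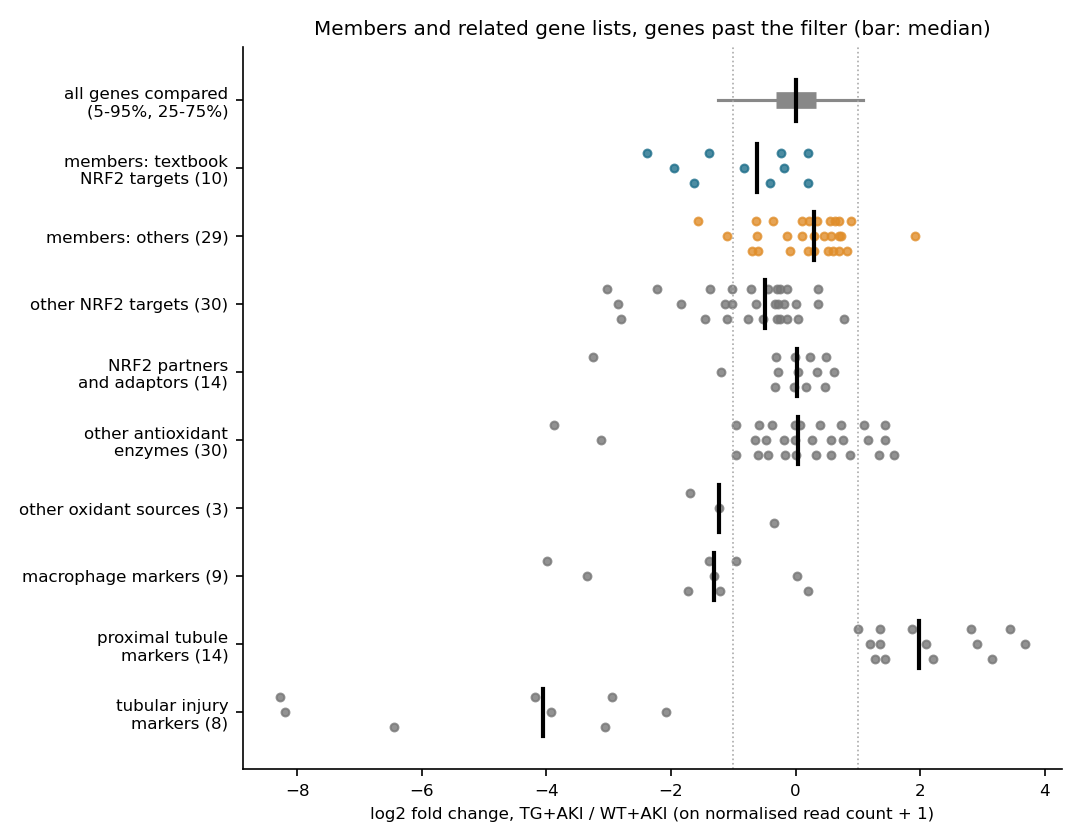
Log2 fold change, TG+AKI over WT+AKI on the normalised read count + 1 scale, for every compared gene of each list, with the median as a black bar, dotted lines at 2-fold, and the spread over all compared genes in the top row. The medians of textbook NRF2 targets inside and outside the 40 genes lie at -0.62 and -0.49, the other members at 0.30, proximal tubule markers at 1.98 and tubular injury markers at -4.05.

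Ratios between related genes within a library do not depend on how the libraries were scaled, and 8 such pairs were formed after the values had been seen. The reads of *Srxn1* per read of its substrate *Prdx1* numbered 0.5005 in WT+AKI and 0.0827 in TG+AKI, 6.05 times lower (95% exact interval 5.79 to 6.33). *Hmox1* per *Hmox2* was 4.51 and 0.904, 4.99 times lower (4.55 to 5.46), with the reservation given above on the *Hmox2* value. *Txnrd1* per *Txnrd2* was 45.5 and 9.16, 4.97 times lower (4.40 to 5.61). *Gclc* per *Gclm* was 3.08 and 1.32, 2.33 times lower (2.24 to 2.42), and *Nfe2l2* per *Nfe2l1* was 1.05 and 0.515, 2.04 times lower (1.93 to 2.15). The biliverdin reductases differed less, with *Blvrb* per *Blvra* at 0.291 and 0.247. *Nox4* per *Cybb* was 12.7 and 77.7, 6.13 times higher in TG+AKI (5.19 to 7.27). *Sod1* per *Cat*, both of which were higher in TG+AKI, was 0.404 and 0.402, and the interval of the difference included 1 (0.965 to 1.02).

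**Figure D4:**
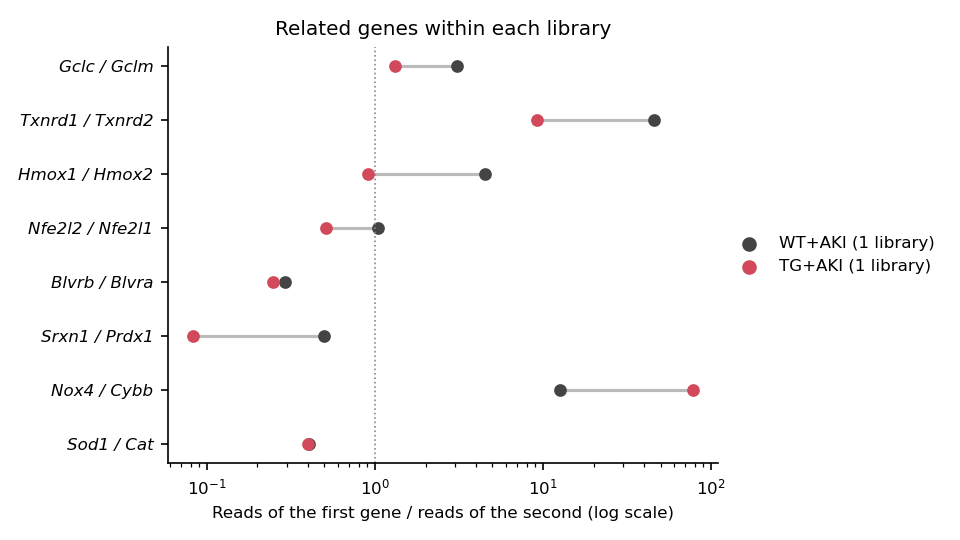
Reads of 1 gene divided by reads of a related gene in the WT+AKI library (grey) and the TG+AKI library (red), on a log axis, for 8 pairs. The points lie apart for *Srxn1*/*Prdx1* (0.5005 and 0.0827), *Hmox1*/*Hmox2* (4.51 and 0.904) and *Nox4*/*Cybb* (12.7 and 77.7), and they coincide for *Sod1*/*Cat* (0.404 and 0.402).

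Compared per kb of the longest annotated transcript, the level of the members spanned from *Gpx7*, with 0.860 (WT+AKI) and 1.17 (TG+AKI), to *Gpx3*, at 9972 and 16111 normalised reads per kb. The order between genes depends on the length used, for example 3970 bases for *Sod1*, and which transcript was mostly made was not examined. *Gpx3*, *Gpx1*, *Gpx4*, *Prdx5* and *Prdx1* held the first 5 places in both libraries. Below them the order differed. *Txnip* was sixth in WT+AKI at 272 per kb and place 15 in TG+AKI at 91.2. *Gclc* went from place 9 (220 per kb) to place 16 (83.2), and *Txnrd1* from place 11 (152) to place 22 (49.0). *Srxn1* stood at place 12 in WT+AKI (146 per kb) and at place 30 in TG+AKI (27.6). *Nox4* stood at place 28 in WT+AKI (34.1 per kb) and at place 9 in TG+AKI (129).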

How the data were processed

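Polyadenylated RNA of the left kidney was sequenced after a TruSeq Stranded mRNA preparation with reads of 100 bases, 1 library for each of the 2 groups. Per the labels, the authors used STAR 2.7.3a, HTSeq, DESeq2, Cufflinks 2.2.1, FastQC and edgeR with build mm10; the annotation and the strand setting of the counting were not given in the sources used here. The deposited values are a signal, reads per gene divided by a library factor by the authors. Dividing a column by its lowest entry gave whole reads throughout (100% within a tolerance of 0.02 reads), and these recovered reads were used for intervals. No row was at 0 in either library, so a gene seen in 1 library only is missing.

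Fold changes were computed on log2(value + 1) for genes with a value of at least 10 (424.0 and 331.2 reads) in at least 1 library. Intervals are exact 95% binomial (Clopper-Pearson) intervals of the recovered reads, or exact conditional intervals of the odds ratio for pairs of genes. They cover counting error only, since reads are PCR products without molecular identifiers, and compare the libraries and not the conditions. No p-value was computed for the condition. Gene positions, lengths and shared 100-base words came from the GRCm38 annotation, and promoter windows from RefSeq (GRCm38.p6). Named genes were all 40 members and, of the other lists, genes at least 2-fold apart, at most 8 per list by size. Markers were otherwise given as sums or medians. Outside these rules, *Nqo1*, *Mafg* and *Csf1r* were named after their values were seen, and *Marco* because it had no row. 1 item of these lists is not reported here. The members, lists and tests were chosen with earlier results of these data known. Procedures were tested on simulated data. Alternatives were 2 pseudocounts (0.1 and 10), 3 scalings, filters of 0, 1 and 50, the addition of an exact binomial test of the reads, and medians without genes sharing 20% of their words. Python 3.11.15, numpy 2.4.6, scipy 1.17.1, pandas 2.3.3 and matplotlib 3.10.9 were used.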

Additional observations from a re-analysis of the deposited data

How the results depend on the processing

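All 7 calls among the members held under the 2 other pseudocounts and the 3 other scalings, 1 more member (*Blvrb*) was called lower with equal totals, and the direction of 34 of the 40 genes did not change under these 5 settings. With both libraries scaled to equal totals, which moved the median over all genes by -0.28, the median log2 fold change of the members was -0.078 in place of 0.20, that of the peroxiredoxins was -0.058 and that of the protein repair reductases was -0.158. The medians of the glutathione peroxidases and the NADPH oxidase subunits were 0.156 and 0.45 there, in place of 0.431 and 0.723. Scaling to a median ratio of 1 over well expressed genes moved the median over all genes by -0.15 and gave a median of 0.053 for the members and -0.03 for the protein repair reductases. The counts over all genes, 591 higher and 733 lower as deposited, were 359 and 1141 with equal totals, 452 and 901 with a median ratio of 1, and 372 and 408 with a pseudocount of 10. Of the called genes, 44.6% were higher as deposited, 23.9% with equal totals and 33.4% with a median ratio of 1. With no filter or a filter of 1 the counts were 784 and 1150, and with a filter of 50 the counts were 374 and 295. The exact binomial test of the reads removed no call. It could hardly do so, since a 2-fold gap at the filter (424.0 and 331.2 reads) is wide beside counting error. The test compares the libraries and not the conditions. No paired analysis was possible because each group had 1 library, and for the same reason no library could be left out. Depth limits *Gpx7* most, with 47 and 50 reads.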
